A study of Danio rerio with 4 samples.

Results

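Retinal ganglion cells are the projection neurons of the eye, and as they leave the cell cycle they extend an axon over the inner retina into the optic nerve. A set of 10 genes was chosen for this programme: growth-cone and microtubule genes (gap43, stmn2a, stmn2b), axonal adhesion molecules (cntn2, alcama), the chemokine receptor cxcr4b, and neuronal RNA-binding proteins (elavl3, elavl4, rbpms2a, rbpms2b). The members were taken by gene name from the authors' deposited comparison table, and every transcript of each gene was then read from the count table of each library. This found 8 of the 10 listed names, with 21 transcripts, among 26355 genes and 46226 transcripts measured. The names rbpms2a and rbpms2b did not occur in the table, and the rbpms2 genes that it does name are described apart from the member counts.

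The study sequenced poly-A RNA from zebrafish retinas dissected at 48 hours post fertilization (hpf), with 1 microgram of total RNA per condition. The id2a knockdown group held 2 libraries from retinas treated with a morpholino against id2a, whose product, a helix-loop-helix protein that does not bind DNA itself, holds E proteins inactive. The control group held 2 libraries from retinas treated with the morpholino labelled Id2aMM. A morpholino is a synthetic antisense oligomer that blocks translation or splicing of an RNA, and the labels do not say which of these the id2a morpholino does. All 4 libraries therefore come from morpholino-treated retinas, called biological replicates in the design text, and the labels give neither a strain, nor an age other than the stage, nor how many embryos were pooled.

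Growing axons depend on a small set of proteins that are made in quantity by young neurons. Gap43 is a membrane-bound protein of the growth cone. In mammals the stathmin SCG10, the product of STMN2, binds tubulin and keeps growth-cone microtubules dynamic. Contactin 2 and Alcam are immunoglobulin-superfamily adhesion molecules carried on axons. In zebrafish, antibodies against Alcama are a classical label of ganglion cells and their axons, and Cxcr4b, the receptor of the chemokine Cxcl12, takes part in guiding ganglion cell axons within the eye. HuC and HuD, the products of elavl3 and elavl4, bind AU-rich RNA and appear as neurons differentiate.

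Library depth ranged from 42980929 to 54710062 counts, and each alignment was counted in full at 1.89 to 2.01 hits per read. Transcripts of 1 gene, and near-identical paralogs, therefore share reads, and values of single transcripts are uncertain to that extent. The targeted gene was not lower in the knockdown, which leaves the labels unchecked because a morpholino can leave the transcript in place. The main id2a transcript stood at 84.8 and 70.6 CPM in knockdown libraries and at 82.3 and 59.5 CPM in control libraries (log2 fold change 0.13, SE 0.24, adjusted p = 0.768 by edgeR). Markers of ganglion, amacrine and progenitor cells were all detected, and no marker list had a gene at 0 in every library. Because this also held for the lists of brain outside the retina, epidermis and muscle, it does not check the retinal label. Markers of ganglion cells summed to 73.7 and 170 CPM in knockdown libraries and to 449 and 357 CPM in control libraries, with 6 of 8 genes lower by the test. The summed markers of other retinal neurons also moved with the group, though not every gene did. Horizontal cell markers summed to 73.7 and 141 CPM in knockdown libraries and to 204 and 192 CPM in control libraries, with 0 of 6 genes lower by the test. Horizontal cell marker onecut1 (log2 fold change 0.73, adjusted p = 0.0728 by edgeR) and amacrine marker slc6a9 (0.85, adjusted p = 0.0621 by edgeR) had positive values, unlike the rest of their lists. Photoreceptor markers summed to 28.8 and 137 CPM in knockdown libraries and to 513 and 336 CPM in control libraries. Of these, 5 of 7 genes were lower, and the median log2 fold change was -6.15. Most of each sum was crx (26.2 and 134 CPM in knockdown libraries, 431 and 261 CPM in control libraries), which did not pass (adjusted p = 0.083 by edgeR). Amacrine markers summed to 426 and 537 CPM in knockdown libraries and to 961 and 793 CPM in control libraries, with 5 of 8 genes lower. Bipolar markers (262 and 383 CPM in knockdown libraries, 696 and 461 CPM in control libraries) had 1 of 5 genes lower and 1 higher. Retinal progenitor markers summed to 3170 and 3110 CPM in knockdown libraries and to 1480 and 1900 CPM in control libraries, with 4 of 9 genes higher. Lens markers (1700 and 946 CPM in knockdown libraries, 366 and 383 CPM in control libraries; 6 of 7 higher) and markers of epidermis and cornea (557 and 197 CPM in knockdown libraries, 1820 and 1910 CPM in control libraries; 7 of 8 lower) also moved with the group. By the same test 5.23% of all tested genes were lower and 2.04% higher. The part of these marker shifts in the results below was not tested. In bulk RNA, fewer cells of a type and less RNA per cell cannot be told apart.

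The RNA-binding protein gene elavl3, the member with the highest level per length, was lower in the knockdown, and it was the only member of the 8 whose most abundant transcript passed the test (edgeR quasi-likelihood, adjusted p under 0.05 over all 37012 tested transcripts). By that rule 1 of 8 members was lower, against 5.23% of the 20875 tested genes. No member was higher by edgeR, against 2.04% of all genes, and 0 were higher with DESeq2 or at an unadjusted p under 0.05. When a gene counted as lower if at least 1 of its transcripts passed, 3 of 8 members were lower (elavl3, stmn2a and stmn2b), against 5.70% of all genes. Without the multiple-test correction, 6 of 8 members were lower at an unadjusted p under 0.05, against 16.7% of all genes. Both knockdown libraries lay below both control libraries for 7 of 8 members, against 32.3% of all genes, and the exception was cxcr4b. The counts of passing members changed when single libraries were left out, and so did those of all genes. Without control replicate 1, or without control replicate 2, no tested gene kept its call. Without knockdown replicate 1 a smaller share of all genes was lower than with all 4 libraries. The loss of calls in these fits therefore does not set the members apart. By either rule 0 of 8 members passed without knockdown replicate 1, without control replicate 1 or without control replicate 2, whereas without knockdown replicate 2 the most abundant transcript passed for 5 members, against 8.94% of all genes, and at least 1 transcript for 6, against 9.57%. With DESeq2 in place of edgeR 5 of 8 members were lower, against 9.04% of all genes. The median log2 fold change was -1.23 over the 8 members and -0.04 over all tested genes.

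**Figure D1:**
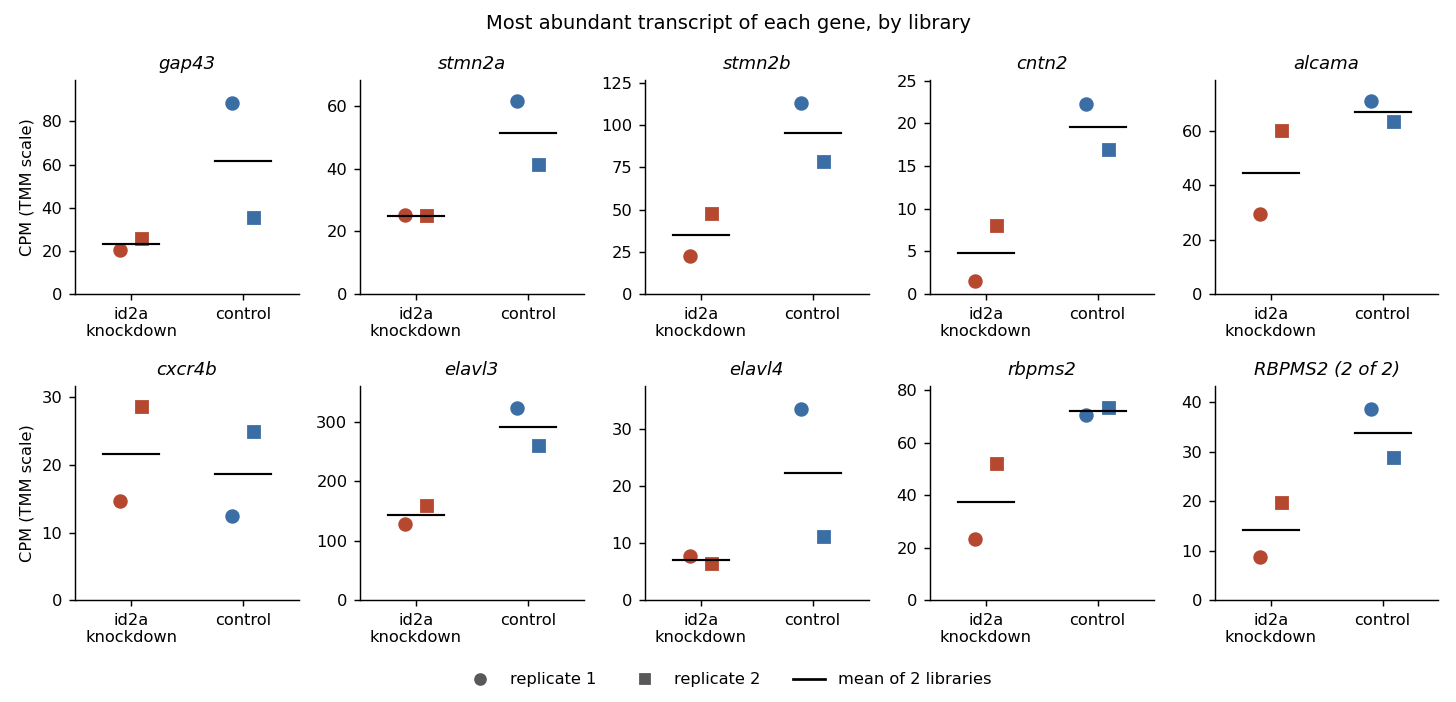
Level of the most abundant transcript of each gene in each library, in CPM (counts scaled to library size) on the TMM scale, with the id2a knockdown libraries at the left and the control libraries at the right of each panel. Circles are replicate 1, squares replicate 2, and bars the mean of 2 libraries. The knockdown points lie below the control points in each panel other than cxcr4b.

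Gap43 (ENSDARG00000015775, 1 transcript, on the unplaced scaffold Zv9_NA963) stood at 20.4 and 25.7 CPM in knockdown replicates 1 and 2, and at 88.5 and 35.2 CPM in control replicates 1 and 2. The groups did not overlap, but the control libraries stood far apart. The means were 23.0 ± 3.73 CPM in the knockdown and 61.9 ± 37.7 CPM in the control (SD, n = 2 each). The log2 fold change of -1.43 (SE 0.40) did not pass the test (adjusted p = 0.0696 by edgeR). The counts behind it were 855 and 1416 in the knockdown and 4377 and 1948 in the control.

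The stathmins lay at the threshold of the test. The most abundant transcript of stmn2a (ENSDARG00000033234, chromosome 16) stood at 25.1 and 24.8 CPM in knockdown libraries and at 61.4 and 41.2 CPM in control libraries. The knockdown libraries were nearly equal, and both lay below the lower control. At -1.04 (log2; SE 0.26, adjusted p = 0.0504 by edgeR) the fold change lay just outside the threshold. The other stmn2a transcript, at 7.78 and 8.41 CPM in the knockdown and 22.5 and 16.7 CPM in the control, fell by 1.28 on the log2 scale (SE 0.26, adjusted p = 0.0331 by edgeR). For stmn2b (ENSDARG00000070537, chromosome 19) the most abundant transcript stood at 22.8 and 47.6 CPM in knockdown libraries and at 113 and 78.2 CPM in control libraries. Here too every knockdown value was below every control value, with knockdown replicate 2 the nearer to the controls. Its log2 fold change was -1.44 (SE 0.36, adjusted p = 0.0525 by edgeR). The second stmn2b transcript fell by 1.49 (log2; SE 0.35, adjusted p = 0.0450 by edgeR), with levels of 19.2 and 38.7 CPM in the knockdown against 93.9 and 68.9 CPM in the control. Each stathmin thus had 1 of 2 transcripts on either side of the threshold, with log2 fold changes that differed by less than their SE.

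Contactin 2 had the most negative log2 fold change of the members and the widest spread between knockdown libraries. Its main transcript (ENSDARG00000000472, chromosome 11) stood at 1.55 and 8.03 CPM in knockdown replicates 1 and 2, and at 22.2 and 16.9 CPM in control replicates 1 and 2. The controls lay close together, and knockdown replicate 2 was 5.18 times knockdown replicate 1. The log2 fold change of -2.02 (SE 0.62) did not pass (adjusted p = 0.0841 by edgeR), and neither did that of the second transcript (-2.03, SE 0.64, adjusted p = 0.0913 by edgeR). The other adhesion molecule, alcama (ENSDARG00000026531, chromosome 10), stood at 29.3 and 59.8 CPM in knockdown libraries and at 70.9 and 63.1 CPM in control libraries. Knockdown replicate 2 came within a few CPM of control replicate 2, whereas knockdown replicate 1 was well below both controls. The log2 fold change of alcama was -0.59 (SE 0.33, adjusted p = 0.292 by edgeR), and its 4 transcripts ranged from -0.65 to -0.59.

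The chemokine receptor cxcr4b (ENSDARG00000041959, 1 transcript, chromosome 9) was the member whose groups overlapped. It stood at 14.7 and 28.5 CPM in knockdown replicates 1 and 2, and at 12.5 and 24.9 CPM in control replicates 1 and 2. In each group replicate 2 was above replicate 1, and the groups interleaved. Its log2 fold change was 0.21 (SE 0.41, adjusted p = 0.783 by edgeR). The sign of that value rested on single libraries, being -0.35 without knockdown replicate 2 and -0.19 without control replicate 1.

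Among the RNA-binding proteins, elavl3 (ENSDARG00000014420, chromosome 3) stood at 129 and 159 CPM in knockdown libraries and at 324 and 259 CPM in control libraries. The groups were well separated and each was compact. The means were 144 ± 21.7 CPM in the knockdown and 292 ± 45.8 CPM in the control (SD, n = 2 each), and the log2 fold change was -1.02 (SE 0.23, adjusted p = 0.0429 by edgeR). Of its 3 other transcripts 1 also fell (log2 fold change -1.34, SE 0.28, adjusted p = 0.0342 by edgeR), with levels of 23.0 and 36.1 CPM in the knockdown and 82.8 and 66.9 CPM in the control. The remaining pair had log2 fold changes of -1.07 and -0.94 (adjusted p = 0.0613 and 0.124 by edgeR). The call on the main transcript was lost without knockdown replicate 1, without control replicate 1 and without control replicate 2, and kept without knockdown replicate 2. Without control replicate 1, or without control replicate 2, every other gene lost its call too. The elavl3 call was also lost with counts summed per gene (adjusted p = 0.0563 by edgeR), by which 2.92% of genes were lower. When limma was run on the log2 scores it was lost as well (adjusted p = 0.14), and only 13 genes in all passed. With a library left out the log2 fold change of elavl3 moved less, between -1.18 and -0.83.

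Its relative elavl4 (ENSDARG00000045639, 5 transcripts, chromosome 8) stood at 7.80 and 6.43 CPM in knockdown libraries and at 33.4 and 11.1 CPM in control libraries. The groups did not overlap, and control replicate 1 was 3.0 times control replicate 2. The log2 fold change of the main transcript was -1.65 (SE 0.47, adjusted p = 0.0704 by edgeR), and over the 5 transcripts it ranged from -1.81 to -1.44, with edgeR adjusted p-values of 0.0688 to 0.128. None of them passed.

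**Figure D2:**
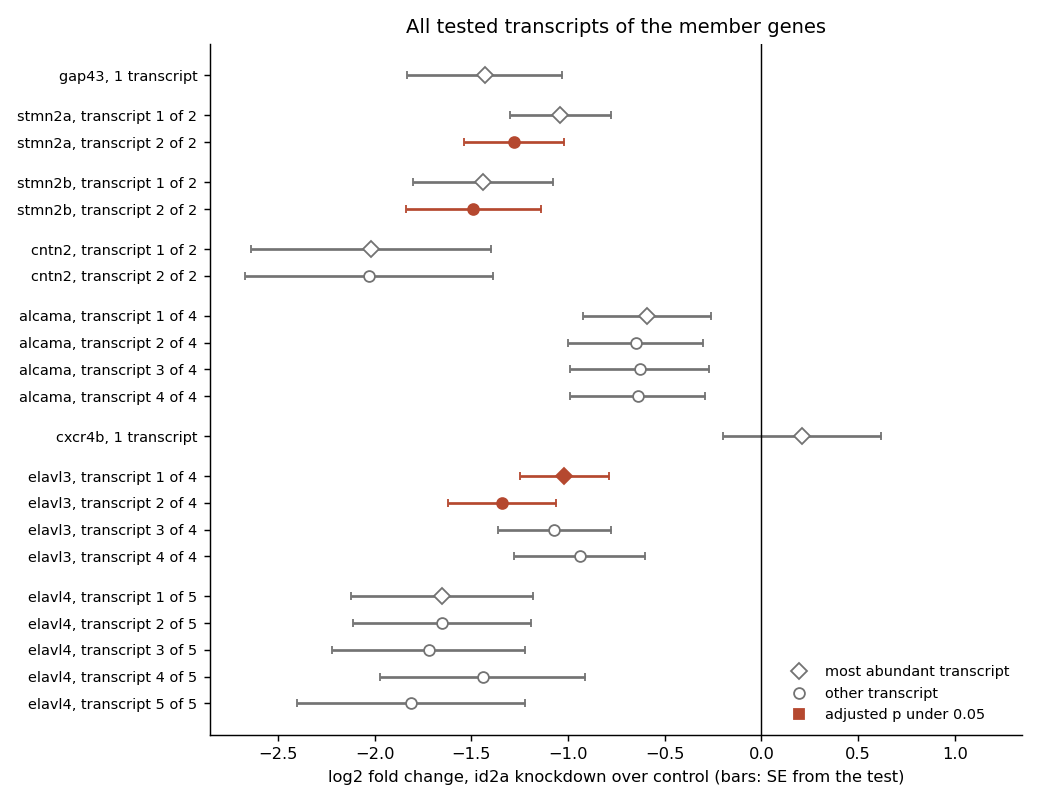
Log2 fold change, id2a knockdown over control, of all 21 transcripts of the 8 members, with the SE from the edgeR test as bars. Diamonds mark the most abundant transcript of a gene and filled red symbols the transcripts at an adjusted p under 0.05. The 4 filled symbols belong to stmn2a, stmn2b and elavl3, and cxcr4b is the only transcript to the right of 0.

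The rbpms2 genes encode RNA-binding proteins that label ganglion cells across vertebrates. The table holds a gene named rbpms2 (chromosome 7, 8 transcripts), an older name of rbpms2b in RefSeq, and a gene named RBPMS2 (2 of 2) (chromosome 25, 1 transcript), which the sources used here do not pair with either member name. The main rbpms2 transcript stood at 23.3 and 51.8 CPM in knockdown libraries and at 70.7 and 73.1 CPM in control libraries (log2 fold change -0.94, SE 0.35, adjusted p = 0.134 by edgeR). RBPMS2 (2 of 2) stood at 8.78 and 19.7 CPM in knockdown libraries and at 38.6 and 28.8 CPM in control libraries (log2 fold change -1.24, SE 0.38, adjusted p = 0.0834 by edgeR). Neither of these transcripts overlapped between groups and neither passed. The main rbpms2 transcript had the most negative value of its gene, whose 8 transcripts ranged from -0.94 to -0.47, and the groups of 3 of them overlapped. Knockdown replicate 2 was 2.23 times knockdown replicate 1 for rbpms2 and 2.24 times for RBPMS2 (2 of 2).

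Per length, on the RPKM scale of the authors' deposited scores, the members spanned more than an order of magnitude in level. Elavl3 was first, with a mean level of 45.5 ± 7.54 in the knockdown and 88.2 ± 8.63 in the control (SD, n = 2 each, as for the levels that follow). Gap43 (20.4 ± 3.65 in the knockdown, 54.3 ± 31.5 in the control) and stmn2b (17.9 ± 9.30 in the knockdown, 48.8 ± 11.0 in the control) came next, and their levels differed by less than their SD in either group. In the control, stmn2a at 22.7 ± 4.86 and alcama at 20.3 ± 1.11 differed by less than the SD of stmn2a, followed by cxcr4b at 10.4 ± 5.25, elavl4 at 9.50 ± 6.54 and cntn2 at 7.07 ± 1.14, which were not separated either. In the knockdown the order differed, with alcama at 13.4 ± 6.60, cxcr4b at 12.1 ± 5.62 and stmn2a at 10.6 ± 0.206 within an SD of each other. Elavl4 at 3.04 ± 0.317 and cntn2 at 1.77 ± 1.68 were the lowest members there.

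Because transcripts share reads, whole genes were also compared. With the counts summed per gene, each alignment in full, 0 of 8 members passed, against 2.92% of 21268 genes lower, and the lowest adjusted p-values were 0.0552 for stmn2a and 0.0563 for elavl3 (edgeR; 6 members at an unadjusted p under 0.05). In a variant chosen after the data had been seen, the reads were split over the transcripts they hit before they were summed. On this scale elavl3 stood at 185 and 263 CPM in knockdown libraries and at 588 and 457 CPM in control libraries, and fell by 1.22 on the log2 scale (SE 0.25, adjusted p = 0.0388 by edgeR). Stmn2a, at 25.7 and 29.2 CPM in knockdown libraries and 78.1 and 56.8 CPM in control libraries, fell by 1.30 (log2; SE 0.25, adjusted p = 0.0372 by edgeR). These 2 of 8 members passed with the split reads, against 5.03% of 19595 genes lower, and the groups of both were fully separated. The log2 fold changes of the other members were -1.34 for gap43, -1.56 for elavl4, -1.92 for cntn2, -1.37 for stmn2b, -0.49 for alcama and 0.32 for cxcr4b, with edgeR adjusted p-values of 0.0649 to 0.649. The make-up of the genes moved little between libraries. The long elavl3 transcript took 74.5% and 70.8% of the gene's split reads in the knockdown libraries and 73.9% and 76.3% in the control libraries, and the main stmn2a transcript took 69.6% and 71.3% in the knockdown libraries and 72.2% and 72.9% in the control libraries.

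In the authors' deposited table at least 1 transcript was lower at an adjusted p under 0.05 for 4 of 8 members, against 6.58% of the 24505 genes in it. These were elavl3 (2 of 4 transcripts), cntn2 (2 of 2), stmn2a (1 of 2) and stmn2b (1 of 2). For cntn2 the authors' deposited table gives the main transcript -1.98 (log2) at an adjusted p of 0.0104, a call that edgeR did not make. Gap43 (-1.39, adjusted p of 0.471) and elavl4 (-1.62, adjusted p of 0.502 for the main transcript) were not called in the authors' deposited table.

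The libraries of a group differed more for some members than for others. Control replicate 1 was above control replicate 2 for 7 of 8 members, against 51.9% of all tested genes, and knockdown replicate 2 was above knockdown replicate 1 for 6 of 8, against 48.6%. Among 14477 genes averaging at least 2 CPM, a ratio of control replicate 1 to control replicate 2 as high as that of elavl4 (3.0) was found in 0.401%, and one as high as that of gap43 (2.51) in 0.988%. Cxcr4b lay at the other end, with a ratio of 0.501, matched or exceeded by 98.5% of genes. For the ratio of knockdown replicate 2 to knockdown replicate 1, cntn2 (5.18) was in the highest 0.663% of genes, stmn2b (2.09) in the highest 3.99% and alcama (2.04) in the highest 4.24%. The knockdown libraries lay closer together for stmn2a (0.991), elavl4 (0.825), elavl3 (1.24) and gap43 (1.26).

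**Figure D3:**
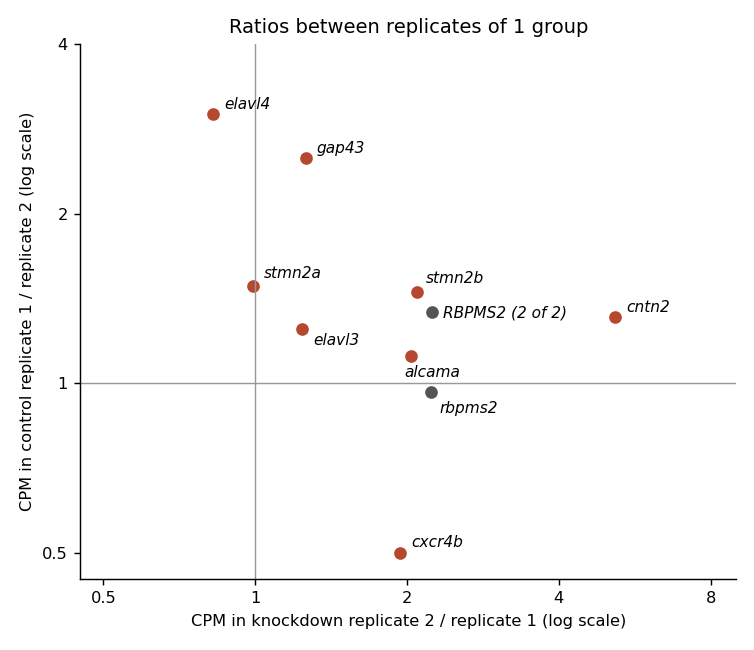
Ratio of knockdown replicate 2 to knockdown replicate 1 (horizontal) against the ratio of control replicate 1 to control replicate 2 (vertical), both of CPM on log axes, for the 8 members (red) and the rbpms2 genes (grey). Gap43 and elavl4 lie high, at control ratios of 2.51 and 3.0, and cntn2 lies far right, at a knockdown ratio of 5.18.

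Control replicate 1 held more RNA of several neuronal marker lists than control replicate 2. This was so for 7 of 8 ganglion cell markers (median ratio 1.44) and 5 of 5 bipolar markers (1.31). It was also so for 7 of 8 amacrine (1.16) and 5 of 6 horizontal cell markers (1.25). In the list for brain outside the retina it was so for 11 of 16 genes (1.23). Whether the retina itself expresses the genes of that list was not tested. Photoreceptor markers were divided, with 4 of 7 higher in control replicate 1 (1.04), against 51.9% of all tested genes. Their sums were 513 and 336 CPM in control replicates 1 and 2, mostly from crx (431 and 261 CPM). Some other lists were mostly higher in control replicate 2. Only 2 of 9 retinal progenitor (median ratio 0.83) and 2 of 7 lens markers (0.794) were higher in control replicate 1. The same held for 2 of 9 oligodendrocyte and muscle (0.867) and 1 of 8 epidermis and cornea markers (0.917). The brain markers summed to 78.5 and 69.4 CPM in knockdown libraries and to 130 and 86.8 CPM in control replicates 1 and 2. Of these sums foxg1a gave 27.3 and 22.2 CPM in knockdown libraries and 19.8 and 19.4 CPM in control libraries. Of the brain markers, 3 were more than 2-fold higher in control replicate 1 than in control replicate 2, as were 2 of the ganglion cell markers. The hindbrain gene hoxb3a, 1 of those 3 brain markers, stood at 8.59 and 6.62 CPM in knockdown libraries and at 21.4 and 6.01 CPM in control replicates 1 and 2. The Hox gene hoxa2b of the same list did not share this difference. It stood at 0.763 and 0.544 CPM in knockdown libraries and at 0.89 and 0.941 CPM in control replicates 1 and 2. Markers of peripheral sensory neurons and neural crest, a list that includes the ganglion cell gene isl1, summed to 31.0 and 63.6 CPM in the knockdown and to 192 and 154 CPM in the control. By the test 1 of 16 brain markers was lower (gbx2), and 1 of 6 peripheral markers (isl1), against 5.23% of all tested genes. The part of these differences in the values of gap43 and elavl4 was not tested. Without control replicate 1 the log2 fold change was -0.59 for gap43, -0.63 for elavl4, -0.71 for stmn2a and -1.79 for cntn2, and the median over the 8 members was -0.67. No tested gene passed in that fit (edgeR, 0 of 20875, with 4891 at an unadjusted p under 0.05).

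Without knockdown replicate 2 cntn2 had a log2 fold change of -3.65, stmn2b of -2.07 and alcama of -1.19. Gap43, whose knockdown libraries lay closer together, came to -1.60. Without knockdown replicate 1 the values were -1.27 for cntn2, -1.0 for stmn2b and -0.15 for alcama. A lone library is assumed to vary like the other group in these fits. For the 7 members with a negative log2 fold change, the sign was kept in all 4 of these fits.

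**Figure D4:**
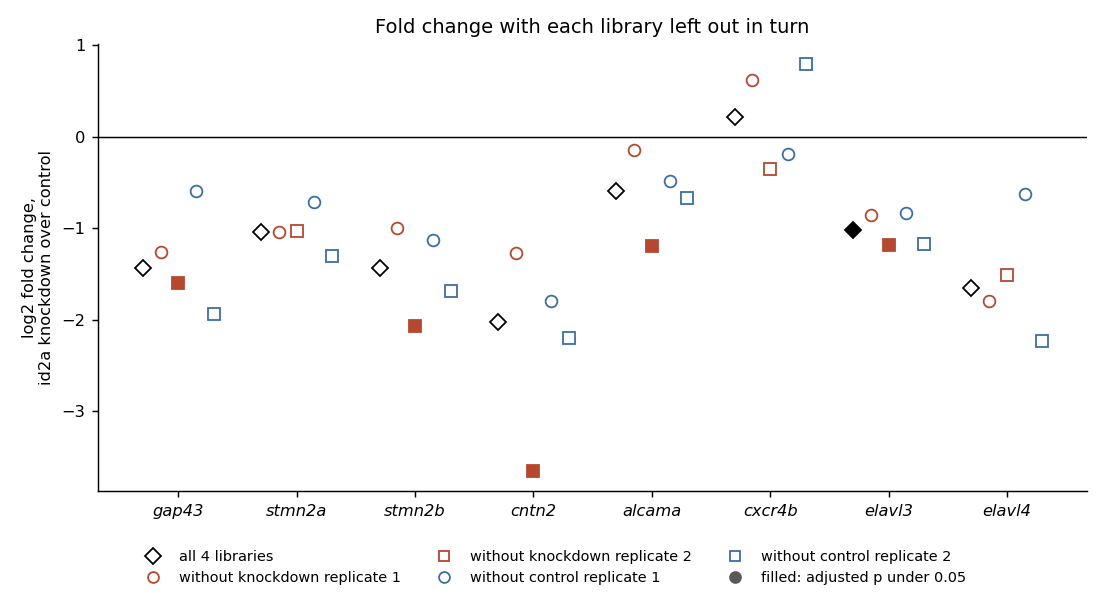
Log2 fold change, id2a knockdown over control, of the most abundant transcript of each member with all 4 libraries (diamonds) and with each library left out in turn. Filled symbols passed at an edgeR adjusted p under 0.05. Cntn2 reached -3.65 without knockdown replicate 2, gap43 and elavl4 came to -0.59 and -0.63 without control replicate 1, and cxcr4b lay on both sides of 0.

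Other genes of the same processes were read from lists that leave out the members. The list of neuronal cytoskeleton and growth-cone genes (tubulins, microtubule-associated proteins, kinesins, ankyrins and further stathmins) had 16 of 47 tested genes lower and 0 higher, and the median log2 fold change was -0.81. The gene zgc:73142, whose RefSeq symbol is nsg2 and which encodes a neuron-specific vesicle protein, stood at 6.37 and 6.16 CPM in knockdown libraries and at 55.9 and 39.5 CPM in control libraries, and fell by 2.93 on the log2 scale (SE 0.27, adjusted p = 0.0115 by edgeR). Its groups lay far apart. Ankyrin ank3a, a scaffold of the axon initial segment in mammals, fell by 2.61 (log2; SE 0.42, adjusted p = 0.0238 by edgeR), with 7.97 and 18.5 CPM in the knockdown and 98.4 and 63.9 CPM in the control.

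The list of further ganglion cell genes had 16 of 48 tested genes lower and 0 higher, and the median log2 fold change was -0.96. Examples were the G protein subunit gng3, which fell by 1.95 on the log2 scale (SE 0.26, adjusted p = 0.0203 by edgeR), and the Iroquois transcription factor irx6a, which fell by 2.59 (SE 0.39, adjusted p = 0.0222 by edgeR). Both were separated between groups, with gng3 at 9.59 and 10.3 CPM in the knockdown and 44.9 and 31.8 CPM in the control. The proneural factor atoh7, which acts at the birth of ganglion cells, stood at 33.2 and 63.5 CPM in knockdown libraries and at 43.1 and 68.8 CPM in control libraries (log2 fold change -0.21, adjusted p = 0.739 by edgeR), and its groups overlapped. Neurofilament, intermediate filament and synuclein genes had 3 of 11 lower and 0 higher, with a median of -1.06. Among them beta-synuclein, sncb, fell by 1.72 (log2; SE 0.30, adjusted p = 0.0259 by edgeR) and the internexin inab fell by 1.58 (SE 0.35, adjusted p = 0.0387 by edgeR). The call on inab was lost without knockdown replicate 1 (adjusted p = 0.0802 by edgeR) and with counts summed per gene (adjusted p = 0.0564 by edgeR). The median of this list came to -0.22 without control replicate 1 and to -0.61 with a filter of at least 2 CPM in at least 2 libraries.

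Immunoglobulin-superfamily adhesion genes had 3 of 18 lower and 0 higher, with a median of -1.07. Contactin cntn1b stood at 0.167 and 1.05 CPM in knockdown libraries and at 13.0 and 9.73 CPM in control libraries, and fell by 4.16 on the log2 scale (SE 0.64, adjusted p = 0.0227 by edgeR). Igsf21b fell by 4.71 (SE 0.78, adjusted p = 0.0251 by edgeR), with 0.0239 and 0.598 CPM in the knockdown and 10.2 and 7.31 CPM in the control. Neither gene exceeded 1.05 CPM in a knockdown library. Neuronal RNA-binding genes of the Elav, Celf, Rbfox and related families had 4 of 19 lower and 0 higher, with a median of -0.56. The splicing regulator rbfox1 fell by 2.55 (log2; SE 0.37, adjusted p = 0.0209 by edgeR) and celf5 fell by 1.88 (SE 0.33, adjusted p = 0.0259 by edgeR).

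Each share of these lists in the test of all 4 libraries is to be read against the 5.23% of all tested genes that were lower by the same rule. A fit with a library left out has its own share of all genes lower, and its list counts are to be read against that. That share was higher without knockdown replicate 2 than without knockdown replicate 1, as were the list counts given below for these fits. With counts summed per gene, by which 2.92% of genes were lower, the further ganglion cell list had 6 genes lower and the neurofilament list 1, and with limma on log2 scores 0 genes of these lists passed, when 13 genes in all did (5032 at an unadjusted p under 0.05). No gene of any list passed without control replicate 1 or without control replicate 2, when no gene at all passed (edgeR, 4891 and 4924 genes at an unadjusted p under 0.05). Without knockdown replicate 1, when 3.81% of all genes were lower, the cytoskeleton list had 9 genes lower, and without knockdown replicate 2 it had 23; the adhesion list had 2 and 9, the further ganglion cell list 14 and 21 and the RNA-binding list 2 and 4. The log2 fold changes of cntn1b (-3.42 and -6.07), ank3a (-2.13 and -3.35) and inab (-1.15 and -2.19) were likewise nearer 0 without knockdown replicate 1 than without knockdown replicate 2. Igsf21b came to -3.85 with only knockdown replicate 2 in its group, whereas with only knockdown replicate 1, at 0.0239 CPM, its value depends on the prior count. For rbfox1 the log2 fold change was -1.91 without control replicate 1.

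Close relatives of the members did not all have the same values. Of 8 tested paralogs, cntn1b and stmn1b were lower and 0 were higher. Stathmin stmn1b, a neuronal form, stood at 41.7 and 75.7 CPM in knockdown libraries and at 204 and 128 CPM in control libraries (log2 fold change -1.50, SE 0.34, adjusted p = 0.0433 by edgeR), whereas stmn1a stood at 302 and 302 CPM in the knockdown and 296 and 247 CPM in the control (log2 fold change 0.15, SE 0.21, adjusted p = 0.680 by edgeR). The call on stmn1b was lost without knockdown replicate 1 (adjusted p = 0.101 by edgeR), with counts summed per gene (0.0594) and with split reads summed per gene (0.0528). Stmn4l and stmn4 had log2 fold changes of -1.64 and -0.95 (adjusted p = 0.0569 and 0.248 by edgeR). The broadly expressed elavl1 stood at 133 and 146 CPM in the knockdown and 143 and 213 CPM in the control, with overlapping groups (log2 fold change -0.35, adjusted p = 0.402 by edgeR). Alcamb had a log2 fold change of -0.66 and cxcr4a of -0.65 (adjusted p = 0.165 and 0.390 by edgeR).

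None of the 4 tested genes of the Cxcr4 pathway outside the members passed (edgeR; 0 at an unadjusted p under 0.05 and 0 with DESeq2). Among all tested genes 5.23% were lower and 2.04% higher by edgeR, so 0 of 4 does not set this pathway apart. The ligand cxcl12a stood at 14.3 and 9.84 CPM in knockdown libraries and at 9.87 and 18.5 CPM in control libraries (log2 fold change -0.23), and cxcl12b at 2.74 and 5.98 CPM in knockdown libraries and 2.12 and 8.74 CPM in control libraries (-0.31). The scavenging receptor cxcr7b stood at 22.8 and 19.2 CPM in knockdown libraries and at 16.8 and 20.6 CPM in control libraries (0.17). The groups of these 3 genes overlapped, as did those of cxcr4b.

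Over the 4 libraries the median profile of the members, in log2 CPM centred per gene, was -0.736 and -0.29 in knockdown replicates 1 and 2 and 0.909 and 0.30 in control replicates 1 and 2. Among 12511 other named genes averaging at least 2 CPM, the nearest to it by Euclidean distance were maff (0.125), FLOT2 (2 of 2) (0.134), jarid2a (0.135), stox2 (0.139) and gnb2 (0.14). Maff, a small Maf transcription factor, stood at 7.66 and 9.68 CPM in knockdown libraries and at 23.8 and 15.4 CPM in control libraries. Likeness over 4 libraries describes these libraries only.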

How the data were processed

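The members, gene lists and tests were chosen with earlier results of these data known. Per the file names, the authors aligned reads to zebrafish Ensembl 66 cDNA with bowtie. No source used here states the genome build, though scaffold names in the authors' table begin with Zv9. The authors deposited, per library, whole-number counts of alignments per transcript for 1 mate (used here) and both mates, and estimated counts of reads split over the transcripts they hit, rounded before fits. The authors deposited a whole-series table of a score, which recomputes as 1000 times RPKM (98.8% to 99.7% of values within 1 unit), shown here divided by 1000. The authors' comparison gives log2 fold changes and adjusted p-values from DESeq, per the submitters' processing notes. Another 6 of its columns, of samples or means, were not used.

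The groups (2 libraries each) were compared by the quasi-likelihood F-test of edgeR 4.0.16 (R 4.3.3), after filterByExpr and TMM and without a block, at a Benjamini-Hochberg adjusted p under 0.05 over 37012 transcripts. A gene was represented by its tested transcript with the highest mean CPM. The SE is the absolute log2 fold change over the square root of F. Each p covers the spread between these libraries only. From each list, the pair of called genes averaging at least 2 CPM with the smallest p was named, plus all paralogs, Cxcr4 pathway genes and the 5 nearest profiles; other marker genes were named after their values were seen. Alternatives used DESeq2 1.42.0 and limma 3.58.1 (log2 of score plus 10), other filters and count columns, and each library left out. The code was tested on simulated data. Promoter motifs were not analysed here.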

Additional observations from a re-analysis of the deposited data

How the results depend on the processing

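With 2 libraries a group, the calls lay near the threshold and depended on the method more than the fold changes did. The 1 member called lower and the 1516 genes called became 2 and 1721 with DESeq2 size factors, 5 and 3055 with DESeq2, 6 and 2926 with no filter, 2 and 1362 with a filter of at least 2 CPM in at least 2 libraries, 0 and 828 with counts summed per gene, 2 and 2161 with split reads per transcript, 2 and 1619 with both mates, 0 and 13 with limma on log2 scores, and 6 and 3490 at a threshold of 0.10. With the replicate block they were 6 and 2142. The difference between replicates 1 and 2 did not correlate between the groups (r = -0.03 across tested transcripts). With 1 such difference per group this cannot decide whether same-numbered libraries were paired, and the labels do not say. Split reads summed per gene, an alternative chosen after seeing the data, gave 2 and 1607. With a library left out the counts ran from 0 to 5 members and from 0 to 2695 genes. The 3 members with any transcript lower became 5 with DESeq2, 6 with no filter, 6 with the replicate block, 6 at a threshold of 0.10, 0 with limma on log2 scores, and 0 to 6 with a library left out. No member was called higher under any of these. The gene totals above count calls in both directions. They come from 20875 tested genes in the main test, 26153 when unfiltered and 14852 under the 2 CPM filter. By the most abundant transcript, 5.23% of all genes were lower in the main test and 9.04% with DESeq2. Among settings with all 4 libraries, the any-transcript share of all genes was obtained for the main test only (5.70%). The higher any-transcript member counts with all 4 libraries therefore cannot be set against an any-transcript share of all genes. With DESeq2 the most abundant transcript also passed for 5 members, against 1 in the main test. The share of all genes lower by that rule rose less in proportion, from 5.23% to 9.04%. Of all calls, 28.0% were higher in edgeR, 38.2% in DESeq2, 38.6% with split reads per gene and 16.1% without knockdown replicate 1. The median log2 fold change of the members ranged from -1.49 to -0.67 with a library left out and from -1.37 to -1.15 otherwise; with the rbpms2 genes added, also chosen after seeing the data, it was -1.14 with 1 called. Of 120 alternative values of member fold changes, 2 changed sign, both of cxcr4b (-0.35 without knockdown replicate 2, -0.19 without control replicate 1), whose other end was 0.79 without control replicate 2. The 120 include the values at the threshold of 0.10, which are those of the main test and could not change sign. Cxcl12b became 0.15 without knockdown replicate 1, -0.99 without knockdown replicate 2, 1.04 without control replicate 2 and 0.06 with limma, and cxcl12a 0.01 without knockdown replicate 2, -0.60 without control replicate 1 and 0.29 without control replicate 2. The causes were not tested, other than that the stricter filter and summing per gene change the number of features tested. At 65 counts, cntn2 in knockdown replicate 1 was the thinnest main value of a member.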
